A study of Mus musculus with 20 samples.

Results

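The 38 genes described here encode heat shock proteins and chaperones of the endoplasmic reticulum (ER). They were chosen by name, as a list of HSP90, HSP70, HSP40, small heat shock and ER chaperone genes with some of their partners. Earlier results of these data were known when the list was made. All 38 were found among the 57126 genes of the count files, and all 38 passed the filter on low counts that left 18648 genes for testing. Each was measured by RNA sequencing of whole hippocampus from 20 adrenalectomized male C57BL/6 mice, in 4 groups of 5. The first group was homozygous GRA knockin mice given dexamethasone, a synthetic glucocorticoid, at 1 mg/kg by intraperitoneal injection, and the second was knockin mice given the vehicle PBS. The third was wild-type mice given the same dose of dexamethasone, and the fourth was wild-type mice given PBS. All 20 mice had lost their adrenal glands at about 2.5 months of age, 2 weeks before the injection, so that they lacked their own glucocorticoids, and all were killed 6 h after it. In the knockin, the glucocorticoid receptor gene Nr3c1 keeps the start codon of the full-length GRA protein, while the downstream start codons that give the shorter GRB, GRC and GRD proteins were mutated.

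Chaperones bind proteins that are unfolded or partly folded. HSP70 proteins take up such clients from J-domain proteins (HSP40) and release them with the help of exchange factors, while small heat shock proteins hold clients without using ATP. HSP90, together with co-chaperones such as p23 and HOP, keeps the glucocorticoid receptor in the form that can bind hormone, and the heat shock factor HSF1 drives many of these genes when proteins unfold. In the ER, a separate set (BiP, GRP94, calreticulin and the protein disulfide isomerases) folds secreted and membrane proteins, and the unfolded protein response controls its amount. In brain, the constitutive HSP70 and HSP90 forms are abundant in neurons.

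Library totals ran from 11493014 to 48267708 read pairs, and the 38 genes together took 0.596% to 0.638% of a library. Nr3c1 averaged 111 ± 8.69 CPM (read pairs per 1000000 assigned to genes) in knockin mice given dexamethasone and 163 ± 24.1 CPM in knockin mice given PBS, against 98.6 ± 8.27 and 136 ± 21.8 CPM in wild-type mice given dexamethasone and PBS (SD, n = 5 each). It was lower under dexamethasone in knockin and wild-type mice (log2 fold change -0.55 and -0.46, edgeR adjusted p = 0.00227 and 0.0112). Knockin over wild-type, the log2 fold change of Nr3c1 was 0.18 under dexamethasone and 0.26 under PBS, and neither passed. Point mutations of start codons do not show in gene counts, so these values do not check the genotype labels. All 10 genes of a list known to be induced by the receptor, such as Fkbp5, passed the test as higher under dexamethasone in both genotypes. This list was chosen with earlier results of these data known, so its outcome is not an independent check. Hippocampal subfield genes (Prox1, Neurod6, Fibcd1, Grik4) summed to between 529.6 and 651 CPM in every library, and all 9 neuron markers were detected. Some libraries stood apart. The summed level of 8 liver genes, such as Alb, was 206 and 111 CPM in wild-type PBS replicates 1 and 2, against 3.81 to 47.7 CPM in the other libraries. Choroid plexus genes reached 1443 CPM in knockin dexamethasone replicate 2 and 1809 CPM in wild-type PBS replicate 4. The tests of the 38 genes were repeated without the 2 libraries high in liver genes and without the 2 high in choroid plexus genes. Their results are given both ways where a call changed. Calls of single genes outside the 38, marker sums and counts of groups that do not overlap were not checked this way.

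Per transcript length (RPKM, CPM per 1000 bases of exon), the 38 genes spanned a wide range of levels. The constitutive HSP90 gene Hsp90ab1 stood highest, at 654 RPKM on average over the 20 libraries. The constitutive HSP70 gene Hspa8 followed at 207 RPKM, the ER lectin chaperone gene Calr at 148 RPKM and the second HSP90 gene Hsp90aa1 at 120.1 RPKM. Of the 75-base windows of their transcripts, 42.8% for Hsp90aa1 and 33% for Hspa8 occur in other genes' transcripts, against 0% for Calr and 0.537% for Hsp90ab1, and pairs that map to several genes were not counted. The order therefore holds only for the pairs that were counted. Near the bottom stood the stress-inducible HSP70 genes, Hspa1b at 1.82 RPKM and Hspa1a at 1.05 RPKM, and the small heat shock gene Hspb1 at 1.52 RPKM. The spread between mice of 1 group on the log2 CPM scale was 0.04 for Hsp90ab1 and 0.26 for Hspa1a, beside a median of 0.13 over all genes tested.

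**Figure D1:**
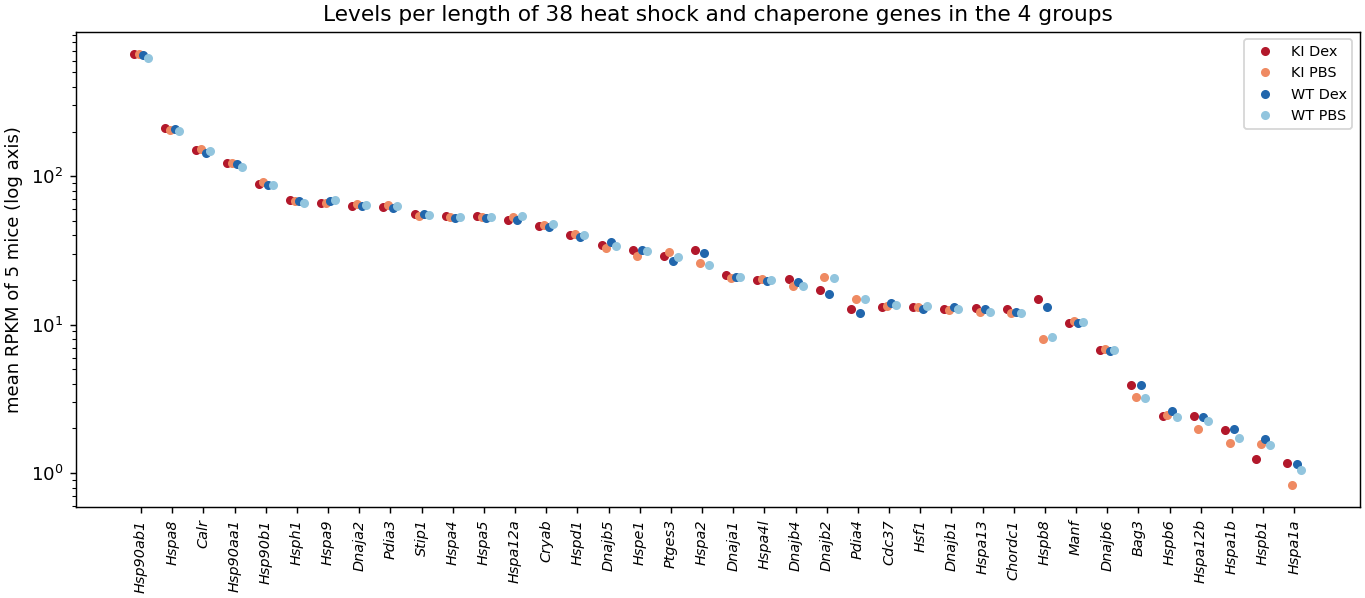
Mean level per length (RPKM, log axis) of each of the 38 genes in knockin Dex, knockin PBS, wild-type Dex and wild-type PBS mice (KI and WT, 5 mice per point), ordered by overall level. The 4 points of most genes lie together, from Hsp90ab1 at 654 RPKM down to Hspa1a at 1.05 RPKM, while those of Hspb8, Dnajb2, Pdia4 and Hspa2 part by treatment.

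Promoters are shown for 4 genes that changed with dexamethasone and for 2 that did not pass the test but are textbook targets of HSF1 (Hspa1b) and of the unfolded protein response (Hspa5). Each run is the 250 bases before the transcription start in the RefSeq tables for GRCm38.p6, 5′ to 3′ on the strand of the gene. The windows are chr5:116422865-116423114 on the minus strand for Hspb8, chr7:128523333-128523582 on the plus strand for Bag3 and chr12:76404120-76404369 on the plus strand for Hspa2. They are chr6:47813513-47813762 on the minus strand for Pdia4, chr17:34959239-34959488 on the minus strand for Hspa1b and chr2:34771840-34772089 on the plus strand for Hspa5. Capitals mark motif matches, and promoters without capitals held none.
Hspb8: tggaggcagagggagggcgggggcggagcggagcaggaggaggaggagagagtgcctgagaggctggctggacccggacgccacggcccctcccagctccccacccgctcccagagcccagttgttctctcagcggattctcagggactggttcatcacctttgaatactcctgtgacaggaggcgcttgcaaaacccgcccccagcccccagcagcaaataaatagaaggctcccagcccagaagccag
Bag3: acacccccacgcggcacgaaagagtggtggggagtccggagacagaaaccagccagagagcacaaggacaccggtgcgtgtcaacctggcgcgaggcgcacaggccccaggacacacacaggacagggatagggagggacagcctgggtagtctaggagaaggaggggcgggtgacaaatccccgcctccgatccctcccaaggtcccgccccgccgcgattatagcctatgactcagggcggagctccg
Hspa2: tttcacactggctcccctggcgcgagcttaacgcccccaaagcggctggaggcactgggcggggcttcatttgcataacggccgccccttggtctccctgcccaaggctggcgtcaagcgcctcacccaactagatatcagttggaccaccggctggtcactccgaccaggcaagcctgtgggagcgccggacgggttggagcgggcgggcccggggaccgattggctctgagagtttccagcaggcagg
Pdia4: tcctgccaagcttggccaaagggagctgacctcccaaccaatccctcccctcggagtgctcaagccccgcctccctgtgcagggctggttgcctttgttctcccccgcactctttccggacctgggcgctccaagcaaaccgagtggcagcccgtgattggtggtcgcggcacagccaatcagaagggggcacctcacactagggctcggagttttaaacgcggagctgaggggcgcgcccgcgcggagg
Hspa1b: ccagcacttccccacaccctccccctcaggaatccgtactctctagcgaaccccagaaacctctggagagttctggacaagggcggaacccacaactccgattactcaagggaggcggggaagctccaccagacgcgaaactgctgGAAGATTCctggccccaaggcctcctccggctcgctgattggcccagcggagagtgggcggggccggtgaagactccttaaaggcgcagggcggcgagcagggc
Hspa5: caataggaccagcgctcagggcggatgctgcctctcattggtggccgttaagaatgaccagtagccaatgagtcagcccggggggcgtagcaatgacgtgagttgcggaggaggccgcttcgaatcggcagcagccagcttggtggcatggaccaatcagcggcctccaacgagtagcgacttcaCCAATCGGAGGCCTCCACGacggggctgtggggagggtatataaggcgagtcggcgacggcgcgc
The motifs were searched on both strands. They were the heat shock element with 3 units (GAANNTTCNNGAA) or with 2 units (GAANNTTC or TTCNNGAA, which every 3-unit element also holds), the glucocorticoid response element GNACANNNTGTNC and the ER stress response element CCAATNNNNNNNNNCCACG. Promoters were listed for 30 of the 38 genes and, in all, for 27025 genes. The 3-unit element was in 3 of the 30 (Dnajb6, Hspd1, Hspe1) and in 0.514% of all genes with a promoter. The windows of Hspd1 and Hspe1 overlap, and their hits are the same bases read on opposite strands, so they are not separate finds. At least 1 2-unit element was in 11 of the 30, which is 36.7%, and in 14.5% of all. This count also holds Hspd1 and Hspe1 with shared bases, and the near-identical Hspa1a and Hspa1b with the same letters at -104. The ER stress response element was in 3 of the 30 (Calr, Hsp90b1, Hspa5) and in 0.13% of all. None of the 30 held the glucocorticoid response element in this window, and 0.44% of all genes did. Of the 8 genes that changed in 1 of the dexamethasone comparisons below, 7 had a promoter listed, and 1 of these, Dnajb4, held any of the motifs, a 2-unit heat shock element. A match of letters is a description and not a binding site.

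Dexamethasone changed a few of the 38 genes, in the same direction in both genotypes, while the HSP90 genes and most others did not pass. The small heat shock gene Hspb8 rose most and Hspa2 rose moderately, while the J-domain gene Dnajb2 and the disulfide isomerase gene Pdia4 fell. In knockin mice 5 of the 38 genes passed the test (adjusted p below 0.05, edgeR quasi-likelihood test, Benjamini-Hochberg adjustment over all 18648 genes), beside 10.0% of all genes tested. Of these, 3 were higher (Hspb8, Hspa2, Dnajb4), beside 5.28% of all genes, and 2 were lower (Dnajb2, Pdia4), beside 4.71%. In wild-type mice 4 passed, beside 9.21% of all genes: 2 were higher (Hspb8, Hspa2; 5.27% of all) and 2 lower (Dnajb2, Pdia4; 3.94%). With the effect averaged over both genotypes, which uses all 20 mice, 8 passed, beside 18.2% of all genes. There 5 were higher (9.79% of all), with Bag3 and Hspa13 added, and 3 were lower (8.41%), with Ptges3 added. These shares are close to those over all genes.

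The median log2 fold change of the 38 genes was 0.01 in knockin and 0.02 in wild-type mice, beside 0.002 and -0.001 over all genes. The median size of the change, without sign, was 0.043 in knockin and 0.055 in wild-type mice, beside 0.09 and 0.088 over all genes. The 95% confidence interval lay within 0.25 of 0 for 28 of the 38 genes in each genotype. In bulk tissue, a lower level may mean fewer cells of a type or less RNA per cell, and these cannot be told apart.

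**Figure D2:**
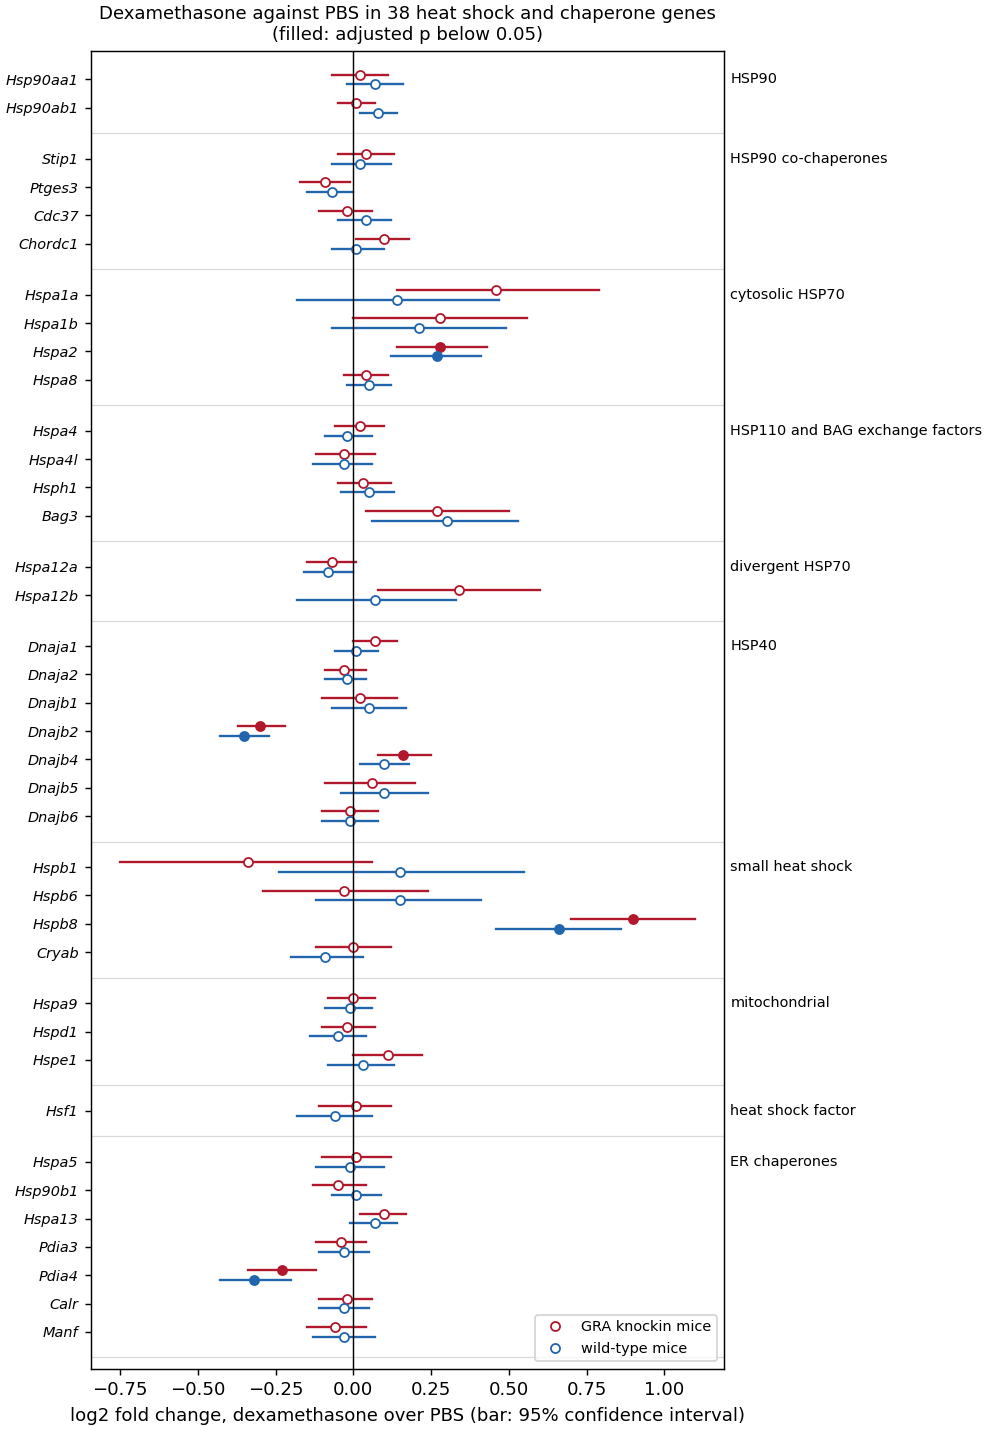
Log2 fold change of dexamethasone over PBS for the 38 genes, ordered by role, in GRA knockin (red) and wild-type mice (blue), with 95% confidence intervals as bars and filled points where the adjusted p was below 0.05. Hspb8 stands furthest to the right at 0.90 and 0.66, Dnajb2 and Pdia4 lie left of 0, and most other points lie within 0.1 of 0.

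Among the small heat shock genes, Hspb8 (chr5:116546550-116560923 of mm39, minus strand) encodes a protein that works with the co-chaperone BAG3 in removing misfolded proteins by autophagy. Hspb8 had 25, 31.5, 22.6, 28.5 and 26.4 CPM in knockin mice given dexamethasone, against 13.4, 12.3, 14, 16.1 and 16.7 CPM in knockin mice given PBS. Wild-type mice given dexamethasone had 24.8, 23.8, 23.4, 23.2 and 23.4 CPM, against 18.1, 16.7, 12.6, 13.8 and 13.9 CPM in wild-type mice given PBS. Every treated mouse was above every PBS mouse of its own genotype, and the treated wild-type mice lay closer together than any other group. Hspb8 rose by a log2 fold change of 0.90 (adjusted p = 5.39e-07 in edgeR, SE 0.10) in knockin mice. Its log2 fold change was 0.66 (adjusted p = 3.9e-05 in edgeR, SE 0.10) in wild-type mice. The difference of the responses, 0.24 (95% confidence interval -0.05 to 0.52), did not pass (edgeR unadjusted p = 0.0959, adjusted p = 1).

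The other 3 small heat shock genes did not pass in either genotype. Cryab, which encodes alpha B-crystallin and is known from oligodendrocytes and astrocytes, averaged 60 ± 3.11 CPM in knockin mice given dexamethasone and 60.1 ± 4.1 CPM in knockin mice given PBS. In wild-type mice Cryab averaged 58.3 ± 5.46 CPM under dexamethasone and 61.8 ± 3.01 CPM under PBS (SD, n = 5 each). Of its exon bases, 19.52% overlap the antisense neighbour Hspb2, from which unstranded counting cannot separate it. Hspb1 (HSP27) gave only 16 to 59 read pairs in a library, and 46.4% of the 75-base windows of its transcripts also occur in 2 other genes' transcripts. Its log2 fold change was -0.34 (95% confidence interval -0.75 to 0.06) in knockin and 0.15 (-0.24 to 0.55) in wild-type mice. Hspb6, at 2.64 to 4.47 CPM over the 20 mice, had log2 fold changes of -0.03 and 0.15 in knockin and wild-type mice. Intervals this wide leave room for changes as large as those of Hspa2.

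Bag3 (chr7:128125340-128148705 of mm39, plus strand) encodes the exchange factor that links HSP70 to HSPB8. Bag3 had 8.87, 9.51, 11.3, 10.9 and 9.5 CPM in knockin mice given dexamethasone, against 9.04, 6.51, 8.65, 7.57 and 10.1 CPM in knockin mice given PBS. In wild-type mice Bag3 had 11.4, 11.9, 9.46, 8.75 and 8.73 CPM under dexamethasone, against 8.35, 10.1, 7.59, 7.77 and 7.27 CPM under PBS. The treated mice were higher on average in both genotypes, and the groups overlapped in both. The log2 fold change was 0.27 (SE 0.11) in knockin and 0.30 (SE 0.11) in wild-type mice, and neither passed (edgeR adjusted p = 0.157 and 0.119). Averaged over both genotypes it was 0.28 (SE 0.08) and passed (edgeR adjusted p = 0.0134). Without wild-type PBS replicate 2 the wild-type change also passed, at 0.38 (edgeR adjusted p = 0.0318), as it did without both wild-type PBS libraries that held liver transcripts, at 0.42 (0.0341).

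The HSP110 genes Hspa4, Hspa4l and Hsph1, whose products also act as exchange factors of HSP70, stayed within 0.05 of 0 in both genotypes and did not pass. Hsph1 averaged 294 ± 11.9 CPM in knockin mice given dexamethasone and 287 ± 14.9 CPM in knockin mice given PBS. In wild-type mice it averaged 288 ± 9.47 CPM under dexamethasone and 278 ± 14.4 CPM under PBS (SD, n = 5 each).

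Of the cytosolic HSP70 genes, Hspa2 (chr12:76450950-76453712 of mm39, plus strand) was the one that passed. Its product is best known for its role in sperm formation in the mouse testis. Hspa2 had 79.8, 77.7, 91.7, 89.7 and 81.2 CPM in knockin mice given dexamethasone, against 71.8, 68.3, 62.7, 76.6 and 64.6 CPM in knockin mice given PBS. In wild-type mice the gene had 95.5, 86.3, 70, 75.8 and 76.8 CPM under dexamethasone, against 66.5, 66.7, 68.2, 65.8 and 68.3 CPM under PBS. No treated mouse fell into the range of its PBS group, and the treated wild-type mice were the most spread. The log2 fold change was 0.28 (adjusted p = 0.00904 in edgeR, SE 0.07) in knockin and 0.27 (adjusted p = 0.0153 in edgeR, SE 0.07) in wild-type mice. Without wild-type PBS replicates 1 and 2, which held liver transcripts, the wild-type change was 0.26 and did not pass (edgeR adjusted p = 0.0799).

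Hspa1a and Hspa1b, the heat-inducible HSP70 genes, lie 9951 bases apart on chromosome 17 and are near-identical. Of the 75-base windows of their transcripts, 61.7% for Hspa1a and 55.8% for Hspa1b occur in other genes' transcripts, mainly in each other's, and pairs that map to both were not counted, so their levels are uncertain. Hspa1a had 3.46, 3.51, 3.43, 3.65 and 3.3 CPM in knockin mice given dexamethasone, against 2.92, 2.12, 2.07, 3.2 and 2 CPM in knockin mice given PBS. In wild-type mice Hspa1a had 3.51, 2.68, 3.21, 4.15 and 3.53 CPM under dexamethasone, against 4.18, 3.52, 2.35, 3.2 and 2.38 CPM under PBS. The knockin groups did not overlap and the wild-type groups did. The averaged log2 fold change was 0.30 for Hspa1a (adjusted p = 0.0625 in edgeR, SE 0.11) and 0.24 for Hspa1b (adjusted p = 0.0849 in edgeR, SE 0.10), and neither passed in edgeR. With the counts of both genes summed the averaged change was 0.26 and passed (edgeR adjusted p = 0.0395). Hspa1a alone also passed without wild-type PBS replicate 1 (0.36, edgeR adjusted p = 0.0158) or 2 (0.33, 0.049), wild-type dexamethasone replicate 2 (0.33, 0.0408), knockin PBS replicate 1 (0.34, 0.0479) or knockin PBS replicate 4 (0.36, 0.0244). In knockin mice alone its change of 0.46 (edgeR adjusted p = 0.0664) passed without wild-type PBS replicate 1 (0.46, 0.0429) or knockin PBS replicate 4 (0.58, 0.0237), without both wild-type PBS libraries that held liver transcripts (0.45, 0.0357) and without the low-count filter (0.46, 0.0472). limma-voom called this change (0.46, adjusted p = 0.0491) and the averaged changes of Hspa1a (0.31, 0.0456) and Hspa1b (0.27, 0.0481). The averaged change of Hspa1b passed without wild-type PBS replicate 1 (0.30, 0.0233). Without both wild-type PBS libraries that held liver transcripts, the averaged changes were 0.43 for Hspa1a and 0.35 for Hspa1b and both passed (edgeR adjusted p = 0.00526 and 0.00836).

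Hspa8 (HSC70), the constitutive form that hands the receptor to HSP90, averaged 505 ± 18.1 CPM in knockin mice given dexamethasone and 492 ± 15.5 CPM in knockin mice given PBS. In wild-type mice Hspa8 averaged 499.8 ± 18.4 CPM under dexamethasone and 482 ± 14.9 CPM under PBS (SD, n = 5 each). Its averaged log2 fold change was 0.05 (95% confidence interval 0 to 0.10) and did not pass (edgeR adjusted p = 0.212). The divergent HSP70 genes did not pass either. Hspa12a had an averaged log2 fold change of -0.07 (edgeR adjusted p = 0.0747), which passed at -0.08 without wild-type dexamethasone replicate 5 (edgeR adjusted p = 0.0496) or knockin PBS replicate 4 (0.0406), and with a filter of 50 counts in 5 libraries (0.0494). Hspa12b, known from endothelial cells, had a log2 fold change of 0.34 (adjusted p = 0.102 in edgeR, SE 0.13) in knockin and 0.07 (SE 0.12) in wild-type mice. Without knockin PBS replicate 5 the knockin value was 0.45 and passed (edgeR adjusted p = 0.00976), as the averaged value did (0.26, edgeR adjusted p = 0.0191), and the knockin value also passed without knockin dexamethasone replicate 4 (0.41, edgeR adjusted p = 0.0472) and in limma-voom (0.38, adjusted p = 0.0304). Of 9 endothelial markers, 1 was higher and 4 were lower under dexamethasone in knockin mice. Their summed level was 254 to 285 CPM in knockin mice given dexamethasone and 287 to 322 CPM in knockin mice given PBS, against 246 to 295 CPM and 297 to 326 CPM in wild-type mice given dexamethasone and PBS. None of the 9 was at 0, and their part in the result was not tested.

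The HSP90 genes and their co-chaperones carry the glucocorticoid receptor. Hsp90ab1 had 1677, 1692, 1706, 1702 and 1642 CPM in knockin mice given dexamethasone, against 1704, 1690, 1608, 1645 and 1691 CPM in knockin mice given PBS. In wild-type mice Hsp90ab1 had 1637, 1657, 1738, 1627 and 1661 CPM under dexamethasone, against 1547, 1626, 1504, 1583 and 1607 CPM under PBS. The knockin groups overlapped, while the lowest treated wild-type mouse stood just above the highest wild-type PBS mouse. The log2 fold change was 0.01 (95% confidence interval -0.05 to 0.07) in knockin and 0.08 (0.02 to 0.14) in wild-type mice. Neither passed (edgeR adjusted p = 0.851 and 0.0864), although DESeq2 gave an adjusted p of 0.0308 in wild-type mice. The difference of the responses, -0.07 (95% confidence interval -0.15 to 0.02), did not pass (edgeR adjusted p = 1). Knockin over wild-type, the log2 fold change was 0.02 (-0.04 to 0.08) under dexamethasone and 0.08 (0.02 to 0.14) under PBS. Neither of these passed after adjustment.

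Hsp90aa1, the stress-responsive HSP90 gene, averaged 416 ± 18.3 CPM in knockin mice given dexamethasone and 411 ± 24.5 CPM in knockin mice given PBS. In wild-type mice Hsp90aa1 averaged 408 ± 25 CPM under dexamethasone and 389 ± 12.2 CPM under PBS (SD, n = 5 each). Its averaged log2 fold change was 0.04 (95% confidence interval -0.02 to 0.11). Stip1, which encodes HOP, the adaptor between HSP70 and HSP90, had averaged change 0.03 (-0.03 to 0.10). Cdc37, the adaptor for kinase clients, had 0.01 (-0.05 to 0.07), and Chordc1, an HSP90-binding protein gene, had 0.06 (-0.01 to 0.12). None of these 4 passed, though Chordc1 did without wild-type PBS replicates 1 and 2 (0.08, edgeR adjusted p = 0.0318). Their intervals leave room for averaged changes of at most 0.12 on the log2 scale.

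Ptges3 encodes p23, which stabilizes the receptor-bound HSP90 complex. Ptges3 had 59.5, 55.6, 57.5, 60.9 and 57.2 CPM in knockin mice given dexamethasone, against 62.3, 61.4, 58, 62 and 66.5 CPM in knockin mice given PBS. In wild-type mice Ptges3 had 55.2, 53, 54.5, 51.4 and 56 CPM under dexamethasone, against 56.6, 58.3, 54.4, 56.7 and 58.6 CPM under PBS. Treated mice were lower on average in both genotypes, and the groups overlapped in both. Averaged over both, it fell by 0.08 on the log2 scale (adjusted p = 0.0342 in edgeR, SE 0.03). This call ended in 12 of 28 alternatives, with an adjusted p of at most 0.0881. They were the fit without the low-count filter (-0.08), the fits without either pair of libraries that stood apart (-0.08 and -0.07), and the fits without wild-type PBS replicate 2 or 5, wild-type dexamethasone replicate 2 or 4, knockin PBS replicate 1 or 5, or knockin dexamethasone replicate 2, 3 or 5, where the change was -0.07 or -0.08.

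**Figure D3:**
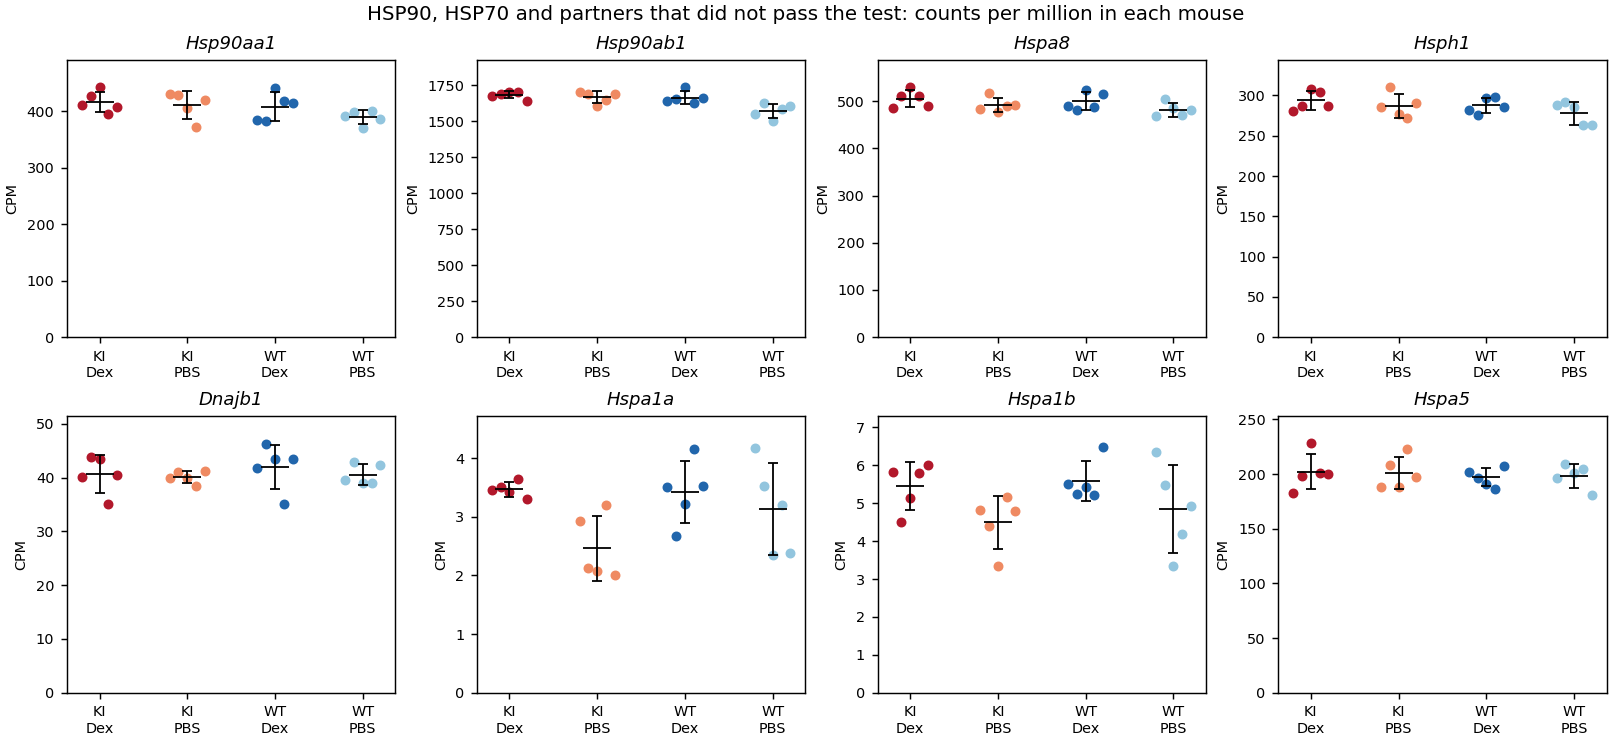
CPM of 8 chaperone genes that did not pass the test, in each of 5 mice per group (points), with the mean and SD (bars), for knockin (KI) and wild-type (WT) mice given dexamethasone or PBS, on axes from 0. Hsp90ab1 stays between 1504 and 1738 CPM in all 20 mice, and Hspa1a and Hspa1b are the most scattered of the 8.

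Of the 7 J-domain (HSP40) genes, Dnajb2 (chr1:75213050-75222336 of mm39, plus strand) fell and Dnajb4 rose. Dnajb2 encodes HSJ1, a J-domain protein enriched in neurons. Dnajb2 had 58.6, 56.8, 55.6, 56.5 and 59.5 CPM in knockin mice given dexamethasone, against 68.5, 67.3, 73.2, 75.8 and 67.1 CPM in knockin mice given PBS. Wild-type mice had 50.9, 54.4, 57.4, 53 and 53.6 CPM under dexamethasone, against 69.3, 67.7, 70.7, 67.6 and 68.7 CPM under PBS. All 10 treated mice lay below all 10 PBS mice. Dnajb2 fell by 0.30 on the log2 scale in knockin mice (adjusted p = 3.76e-06 in edgeR, SE 0.04) and by 0.35 in wild-type mice (adjusted p = 3.54e-07 in edgeR, SE 0.04). The difference of the responses, 0.06 (95% confidence interval -0.05 to 0.17), did not pass (edgeR adjusted p = 1).

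The other changed J-domain gene, Dnajb4, lies at chr3:151889592-151915720 of mm39 on the minus strand. Dnajb4 had 56.1, 58.3, 64.9, 59.5 and 57.5 CPM in knockin mice given dexamethasone, against 54, 52.7, 49.4, 53.7 and 54.3 CPM in knockin mice given PBS. In wild-type mice Dnajb4 had 57.9, 53.2, 58.3, 56.1 and 57.6 CPM under dexamethasone, against 52.2, 54.6, 52.3, 52.8 and 53 CPM under PBS. The knockin groups did not overlap, and in wild-type mice the lowest treated mouse was within the PBS range. The log2 fold change was 0.16 (adjusted p = 0.00579 in edgeR, SE 0.04) in knockin mice, and 0.10 (adjusted p = 0.142 in edgeR, SE 0.04) in wild-type mice did not pass. The difference of the responses, 0.07 (95% confidence interval -0.05 to 0.18), did not pass either (edgeR adjusted p = 1), so the genotypes are not shown to differ. The remaining 5, Dnaja1, Dnaja2, Dnajb1, Dnajb5 and Dnajb6, did not pass. Dnajb1 (HSP40), a textbook HSF1 target, averaged 40.7 ± 3.54 CPM in knockin mice given dexamethasone and 40.1 ± 1.09 CPM in knockin mice given PBS. In wild-type mice it averaged 42 ± 4.16 CPM under dexamethasone and 40.6 ± 1.88 CPM under PBS (SD, n = 5 each).

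The factor gene Hsf1 itself was at 26.1 to 32.7 CPM over all 20 mice, with an averaged log2 fold change of -0.02 (95% confidence interval -0.11 to 0.06), which did not pass. The mitochondrial chaperone genes did not pass either. Hspa9 (mortalin) had an averaged log2 fold change of -0.01 (SE 0.03). It lies 4.46 Mb from the altered Nr3c1 locus on chromosome 18, and its mean level under PBS was 203 CPM in knockin and 209 CPM in wild-type mice. Hspd1 and Hspe1, which encode the HSP60 chaperonin and its cap, lie head to head on chromosome 1 with 107 bases between them. Their listed windows share the same 3-unit heat shock elements, read on opposite strands. The averaged log2 fold changes of Hspd1 and Hspe1 were -0.03 (SE 0.03) and 0.07 (SE 0.04).

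In the ER, Pdia4 (chr6:47773075-47790364 of mm39, minus strand) fell. Its product, ERp72, is a disulfide isomerase that forms and rearranges disulfide bonds. Pdia4 had 28.1, 29.7, 35, 29.4 and 29.7 CPM in knockin mice given dexamethasone, against 33.6, 34.8, 34, 38.8 and 36.4 CPM in knockin mice given PBS. In wild-type mice Pdia4 had 29.4, 27.1, 26.9, 29.2 and 30.2 CPM under dexamethasone, against 34.7, 35.4, 37.7, 36.4 and 33.7 CPM under PBS. The wild-type groups did not overlap, while treated knockin replicate 3 stood within its PBS range. Pdia4 fell by 0.23 on the log2 scale in knockin mice (adjusted p = 0.00543 in edgeR, SE 0.05) and by 0.32 in wild-type mice (adjusted p = 0.00023 in edgeR, SE 0.06). The difference of the responses, 0.09 (95% confidence interval -0.07 to 0.25), did not pass (edgeR adjusted p = 1).

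The main ER chaperones moved little beside it. Hspa5 (BiP), the ER HSP70 and sensor partner of the unfolded protein response, averaged 202 ± 16 CPM in knockin mice given dexamethasone and 201 ± 14.6 CPM in knockin mice given PBS. In wild-type mice Hspa5 averaged 197 ± 8.23 CPM under dexamethasone and 198 ± 11 CPM under PBS (SD, n = 5 each). The averaged log2 fold change of Hspa5 was 0 (95% confidence interval -0.08 to 0.08). Those of Hsp90b1 (GRP94), Pdia3 (ERp57), Calr (calreticulin) and Manf, a secreted ER stress protein gene, were -0.02, -0.03, -0.03 and -0.04, and none passed. Counts of Hsp90b1 can hold pairs of an antisense gene that overlaps 14.69% of its exon bases.

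Hspa13, an HSP70-like gene of the microsomal membrane, had 54.4, 55.8, 60.3, 54.5 and 54.1 CPM in knockin mice given dexamethasone, against 52.3, 53.1, 49.5, 53 and 53.1 CPM in knockin mice given PBS. Wild-type mice had 53.6, 55.6, 55.3, 56.6 and 54.9 CPM under dexamethasone, against 51.7, 55.4, 50.4, 53.8 and 51.9 CPM under PBS. The knockin groups did not overlap and the wild-type groups did. Averaged over both genotypes it rose by 0.08 on the log2 scale (adjusted p = 0.0289 in edgeR, SE 0.03), and neither genotype alone passed. The averaged call ended without wild-type PBS replicate 3 (0.07, edgeR adjusted p = 0.0938), wild-type dexamethasone replicate 4 (0.08, 0.0536), knockin PBS replicate 3 (0.07, 0.0617) or knockin dexamethasone replicate 3 (0.07, 0.0598), and without the low-count filter (0.08, 0.128).

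**Figure D4:**
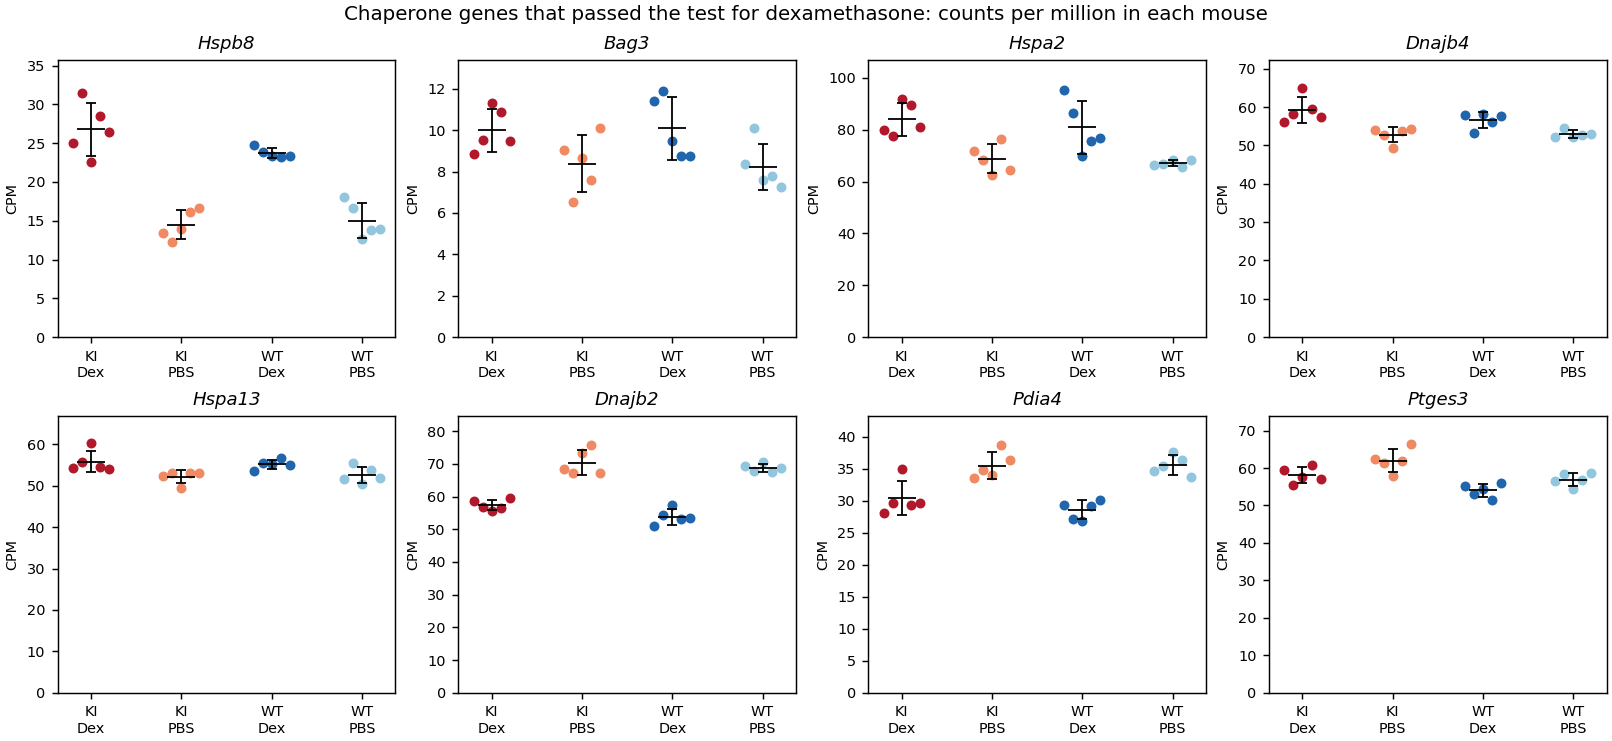
CPM of the 8 genes that passed the test for dexamethasone averaged over both genotypes, in each of 5 mice per group (points), with the mean and SD (bars), for knockin (KI) and wild-type (WT) mice, on axes from 0. Dexamethasone mice lie above PBS mice of their genotype in Hspb8 (22.6 to 31.5 against 12.3 to 16.7 CPM in knockin mice) and below them in Dnajb2 (55.6 to 59.5 against 67.1 to 75.8 CPM).

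Groups of treated and PBS mice did not overlap in 6 of the 38 genes in knockin mice, beside 8.68% of all genes tested. These were Hspb8, Hspa2, Dnajb4, Hspa13 and Hspa1a, with all treated mice higher, and Dnajb2, with all lower. In wild-type mice they did not overlap in 5, beside 8.22% of all genes. These were Hspb8, Hspa2 and Hsp90ab1, with all treated mice higher, and Dnajb2 and Pdia4, with all lower.

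Markers of some cell types also moved with dexamethasone. Of 9 astrocyte markers, 3 were higher and 1 lower in each genotype, with a summed level of 6714 to 7420 CPM in knockin mice given dexamethasone and 6581 to 7014 CPM in knockin mice given PBS, against 6542 to 6833 CPM and 6535 to 6799 CPM in wild-type mice given dexamethasone and PBS. Of 10 oligodendrocyte and myelin markers, 4 were lower in knockin and 3 in wild-type mice. Their summed level was 4833 to 5804 CPM in knockin mice given dexamethasone and 4850.2 to 6545 CPM in knockin mice given PBS, against 3889 to 5631 CPM and 4971 to 5389 CPM in wild-type mice given dexamethasone and PBS. Of 8 microglia markers, 3 were lower in knockin mice, and 2 were higher and 3 lower in wild-type mice. Their summed level was 388 to 409.9 CPM in knockin mice given dexamethasone and 420.5 to 461 CPM in knockin mice given PBS, against 393 to 438 CPM and 419 to 478 CPM in wild-type mice given dexamethasone and PBS. Of 9 neuron markers, 0 passed in either genotype, and 1 was higher in the averaged effect. Their summed level was 11513 to 12815 CPM in knockin mice given dexamethasone and 10977 to 12552 CPM in knockin mice given PBS. In wild-type mice it was 11470 to 12615 CPM under dexamethasone and 10601 to 12179.8 CPM under PBS. Of 9 mural and smooth muscle markers, 1 was lower in knockin mice and 0 passed in wild-type mice. None of these markers was at 0, and their part in the changes of Hspb8, Hspa2, Dnajb2 and Pdia4 was not tested.

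The genotype itself changed none of the 38 genes by this test. Knockin against wild-type mice gave 0 of 38 genes under dexamethasone and 0 of 38 under PBS, beside 0% of all genes in both. The difference of the dexamethasone responses also gave 0 of 38, beside 0% of all genes. At an unadjusted edgeR p below 0.05 there were 828, 673 and 527 genes in these 3 comparisons, and among the 38 there were 3, 2 and 0. DESeq2 called 0 genes in each as well, with 800, 787 and 575 at an unadjusted p below 0.05, and limma-voom called 0, with 1072, 610 and 609. Where no gene differs, a share of about 0.05 of the 18648 genes is expected below this p. The 3 edgeR counts over all genes lie under that share, and the limma-voom count of 1072 lies above it. Knockin and wild-type groups did not overlap in 0 of the 38 genes under dexamethasone, beside 0.788% of all genes, and in 0 under PBS, beside 0.670%.

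The genotype differences were small for most genes. The 95% confidence interval lay within 0.25 of 0 for 32 of the 38 under dexamethasone and for 31 under PBS. Ptges3 averaged 58.1 ± 2.07 CPM in knockin and 54 ± 1.84 CPM in wild-type mice under dexamethasone, a log2 fold change of 0.11 (adjusted p = 1 in edgeR, SE 0.04). Under PBS, Ptges3 averaged 62 ± 3.05 CPM in knockin and 56.9 ± 1.66 CPM in wild-type mice (SD, n = 5 each), a log2 fold change of 0.12 (adjusted p = 1 in edgeR, SE 0.04). The knockin mean was higher under both treatments, and the groups overlapped under both. For Hspb1 the change under dexamethasone was -0.47, with the widest interval of the 38 genes (-0.87 to -0.07, edgeR adjusted p = 1).

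**Figure D5:**
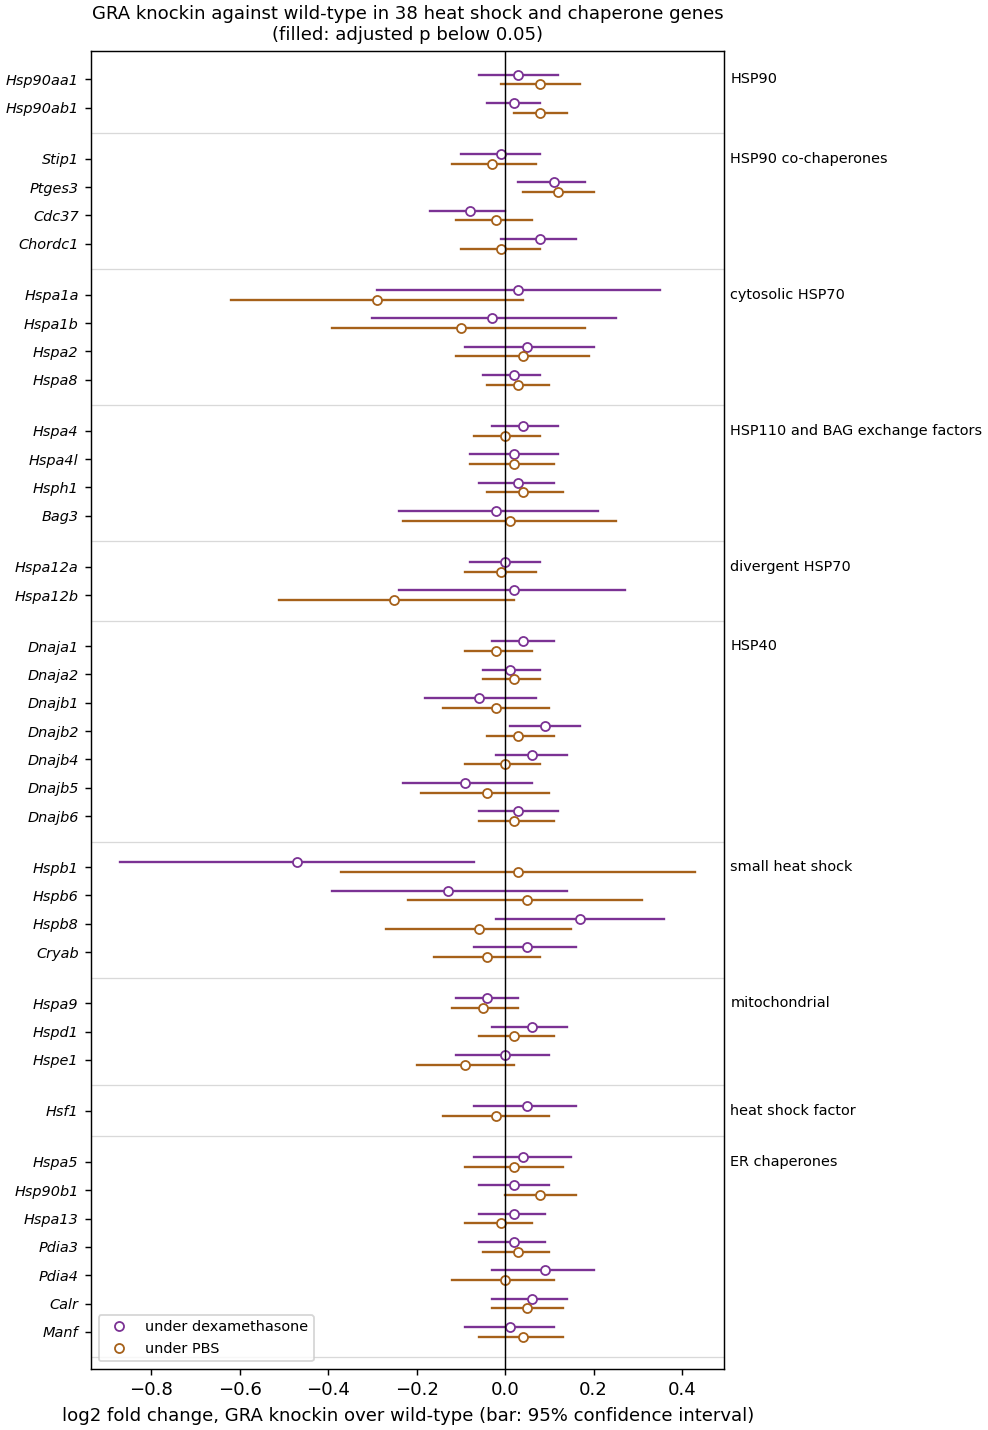
Log2 fold change of GRA knockin over wild-type mice for the 38 genes, ordered by role, under dexamethasone (purple) and under PBS (brown), with 95% confidence intervals as bars. No point is filled, since 0 genes passed, and the widest intervals belong to genes at low levels such as Hspb1 and Hspa1a.

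In wider lists of the same pathways, single genes changed. Of 20 further HSP90 cofactor genes 19 were tested, and 3 were higher in each genotype, beside 5.28% of all genes in knockin and 5.27% in wild-type mice. These were the receptor-binding immunophilin gene Fkbp5 (log2 fold change 1.58 in knockin and 1.61 in wild-type mice), Cdc37l1, a relative of Cdc37 (0.40 and 0.38), and the HSP70 exchange factor gene Bag5 (0.21 in both). Their edgeR adjusted p-values were at most 0.00206. Fkbp5 is also on the receptor-induced list above. Both lists were chosen with earlier results of these data known, so this count is not an independent result. Of 38 further genes of the unfolded protein response and ER folding, 1 was higher and 2 were lower in knockin mice, and 2 were higher and 1 was lower in wild-type mice, beside 10.0% and 9.21% of all genes in either direction. The disulfide isomerase gene Pdia6 fell by 0.20 on the log2 scale in knockin and by 0.18 in wild-type mice (edgeR adjusted p = 0.00692 and 0.0176). Dnajc3, a J-domain gene of the ER whose product is an inhibitor of the kinase PERK, rose by 0.18 in knockin and 0.27 in wild-type mice (edgeR adjusted p = 0.000279 and 8.28e-07). The stress factor gene Xbp1 fell by 0.21 in knockin mice (edgeR adjusted p = 0.0478), and the sensor gene Atf6 rose by 0.24 in wild-type mice (edgeR adjusted p = 0.0183). Averaged over both genotypes, 2 of the 38 were higher (Dnajc3, Atf6) and 5 lower (Pdia6, Xbp1, P4hb, Creld2, Ddit3), beside 18.2% of all genes. The shares of this ER list are close to those over all genes.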

How the data were processed

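Poly(A) RNA of whole hippocampus, 1 library per mouse, was sequenced as 75-base pairs, per the labels' protocols. The authors deposited raw counts of read pairs per gene, made with featureCounts 2.0.6 on the GENCODE M34 basic annotation, without strand or multi-mapping pairs, per the file headers. The submitters' processing notes name STAR 2.5.1, mm39 and Subread 1.5.1. Strand-blind counting merges overlapping antisense genes, and unplaced pairs lower genes with near copies.

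Symbols matched 51884 of 57126 identifiers. Counts were tested with edgeR 4.0.16 in R 4.3.3: filterByExpr (minimum count 10), TMM scaling, robust quasi-likelihood fit of all 20 libraries with 1 term per group, Benjamini-Hochberg adjustment over 18648 genes. CPM are TMM-scaled, except the summed level of the liver genes, which is scaled to the library total. RPKM divide the TMM-scaled CPM by the files' exon length. The dexamethasone comparisons of this fit were tested on simulated counts. Alternatives were other scaling, filters, DESeq2 1.42.0, limma-voom (limma 3.58.1), the compared groups alone, a replicate block and left-out libraries. The 38 genes, all of which could be named, and the other lists were chosen with earlier results of these data known. The deepest library held 48267708 pairs and the shallowest 11493014, and counting error is part of the spread between mice. No 2 libraries of a group agreed within sampling noise (chi-square per gene at least 2.56).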

Additional observations from a re-analysis of the deposited data

Results flagged for a closer look

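Within groups of 5 mice, 8 of 152 gene and group sets held a mouse far from the other 4, and chance gives about 1 in 20. In 2 genes it was treated knockin replicate 3: Hspa13 at 60.3 CPM, against 54.1 to 55.8 in the other 4 mice, and Pdia4 at 35 CPM, against 28.1 to 29.7. Hspa13 also held knockin PBS replicate 3 at 49.5 CPM, against 52.3 to 53.1. Knockin PBS replicate 4 was high in Pdia3, at 179 CPM against 175 to 176, and in Manf, at 27.6 CPM against 25.6 to 26. In Dnaja2, knockin PBS replicate 2 had 197 CPM, against 184 to 188. Treated wild-type replicate 5 had 6.49 CPM of Hspa1b, against 5.22 to 5.52 in the other 4. Cryab in treated wild-type replicate 3 was low, at 48.8 CPM against 59.6 to 62.9.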

How the results depend on the processing

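The number of the 38 genes that passed stayed within 1.5 times its main value under every alternative run. Leaving out each library in turn gave 5 to 6 genes in knockin mice, 4 to 5 in wild-type mice and 6 to 10 averaged. DESeq2 gave 5, 5 and 8, limma-voom 7, 4 and 10, and no low-count filter 6, 3 and 6. Over all genes, the main fit called 1864, 1717 and 3393, and leaving out libraries gave 1501 to 1955, 1288 to 1784 and 2966 to 3480. DESeq2 called 1964, 1805 and 3355 of all genes, limma-voom 1980, 1628 and 3391, and no low-count filter 1746, 1522 and 3133. Under every alternative run Hspb8, Dnajb2 and Pdia4 passed in both genotypes, with Hspb8 at 0.83 to 0.95 in knockin and 0.59 to 0.82 in wild-type mice. Hspa2 in wild-type mice did not pass without the low-count filter (edgeR adjusted p = 0.076). With knockin and wild-type dexamethasone mice fitted alone, 1 gene, not among the 38, was lower in knockin mice. Whether replicate numbers pair the mice is not settled by the counts. Of 20 same-numbered pairs, 4 had a correlation of deviations above 0.1 (range -0.11 to 0.25). Of 20 libraries, 7 correlated best with a library of another group that had their own number, and no chance level was computed for this. With the replicate block, 7 of the 38 passed in knockin mice, 4 in wild-type mice and 9 averaged, beside 1843, 1643 and 3367 of all genes. Those added among the 38 were Hspa1a (0.48, edgeR adjusted p = 0.0325) and Hspa12b (0.34, 0.042) in knockin mice and Hspa1a averaged (0.31, 0.0331). Genes with few counts, such as Hspb1 and Hspa1a, had wide intervals, so a change like that of Hspa2 could be missed within a genotype.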

Other observations

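Of 27 further J-domain genes tested outside the ER list, which holds Dnajc3, 0 passed in either genotype (edgeR), and Dnajc4 was lower by an averaged log2 fold change of -0.18 (adjusted p = 0.0391 in edgeR, SE 0.06). Of 12 other heat shock factor, HSP70 and small heat shock genes tested, 1 passed: Serpinh1, the collagen chaperone HSP47 of the ER, fell by 0.60 on the log2 scale in knockin and by 0.53 in wild-type mice (edgeR adjusted p = 1.74e-06 and 1.17e-05). All 14 genes of the cytosolic chaperonin TRiC and its partner prefoldin were tested, and 0 passed, with averaged log2 fold changes from -0.04 to 0.06. Over all genes tested, 10.0% passed in knockin mice, 9.21% in wild-type mice and 18.2% averaged, and lists this small hold few calls at such shares.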
